A study of Mus musculus with 2 samples.

Results

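The genes described here, 10 of the 55536 in the deposited gene tables, belong to the nuclear end of the Hippo pathway and were measured in mouse calf muscle. They were taken by name: the coactivator genes Yap1 and Wwtr1 (which encodes TAZ), the DNA-binding factor genes Tead1 to Tead4, the cofactor genes Vgll2, Vgll3 and Vgll4, and the kinase gene Lats1. All 10 were found in every table. The samples were total RNA, with ribosomal RNA reduced, from the gastrocnemius of 2 female B6CASTF1/J mice aged 2 months, a hybrid strain with B6 and CAST parents, with no treatment named. The input was 300 ng of RNA per library, ERCC spike-in RNAs were added, and the libraries are called animal 1 and animal 2 after their replicate numbers. The labels number the mice separately but give both the same donor record, so if that record stands for 1 mouse, the SDs below measure spread within it. Whole muscle holds fibres together with fat, nerve, vessel and connective tissue, so a level cannot be assigned to a cell type, and fewer cells of a type and less RNA per cell cannot be told apart.

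In the Hippo pathway the kinases LATS1 and LATS2 phosphorylate YAP and TAZ, which holds them in the cytoplasm. Unphosphorylated YAP and TAZ enter the nucleus and bind TEAD factors, which recognise the MCAT element, known from promoters of muscle genes. VGLL proteins bind the same TEAD factors: VGLL2 is known as a skeletal muscle cofactor, VGLL4 as a competitor of YAP, and VGLL3 as a cofactor in fibroblasts and muscle cells. With 1 group of 2 libraries there was no contrast of conditions, and no p is given: the smallest two-sided p that an exact test allows here is 0.5.

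The libraries held 45231388 and 47956841 expected counts. Levels are in TPM, a transcript level corrected for length and scaled to the same sum in each library. The 10 fast fibre markers listed summed to 54489 TPM in animal 1 and 51437 in animal 2, far above the slow fibre markers. All 10 markers of each of these lists reached 1 TPM in both animals. The animals differed in marker transcripts of several cell types. The 10 slow fibre markers summed to 1161 TPM in animal 1 and 4286 in animal 2, the 8 adipocyte markers to 796 and 106 TPM, the 8 Schwann cell markers to 249 and 33.8 TPM and the 6 tenocyte markers to 120 and 215 TPM. No marker of any of the 10 cell type lists was at 0.

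Of the 10 genes, 9 reached 1 TPM or more in both animals, where 46.5% of 22028 protein-coding genes did. The exception was Tead2, which in the second transcript table described below reached 2.57 and 2.10 TPM, so that all 10 passed there. Protein-coding TPM there summed to 1.62 and 1.58 times that of the gene tables, so 1 TPM is an easier bar. The share of all protein-coding genes passing there is not given. In the order of levels the widest step was from Vgll2 to Yap1 (mean log2 ratio 2.07), then from Vgll3 to Tead2 (1.13). The groups named next are for description only. Tead1 and Vgll2 were near 80 TPM, Yap1 and Wwtr1 between 11 and 20, Vgll4 and Lats1 between 4 and 9, and Tead3, Tead4, Vgll3 and Tead2 near 3 TPM or below. Tead1 stood at rank 556 and Vgll2 at rank 601 of the protein-coding genes by mean TPM, against rank 2555 for Yap1 and rank 10732 for Tead2. Of the 9 neighbouring pairs in the order of levels, 6 differed by more than 2 SD of their log2 ratio with 1 sign in both animals. The 3 that did not were Tead1 with Vgll2, Tead3 with Tead4, and Tead4 with Vgll3.

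**Figure D1:**
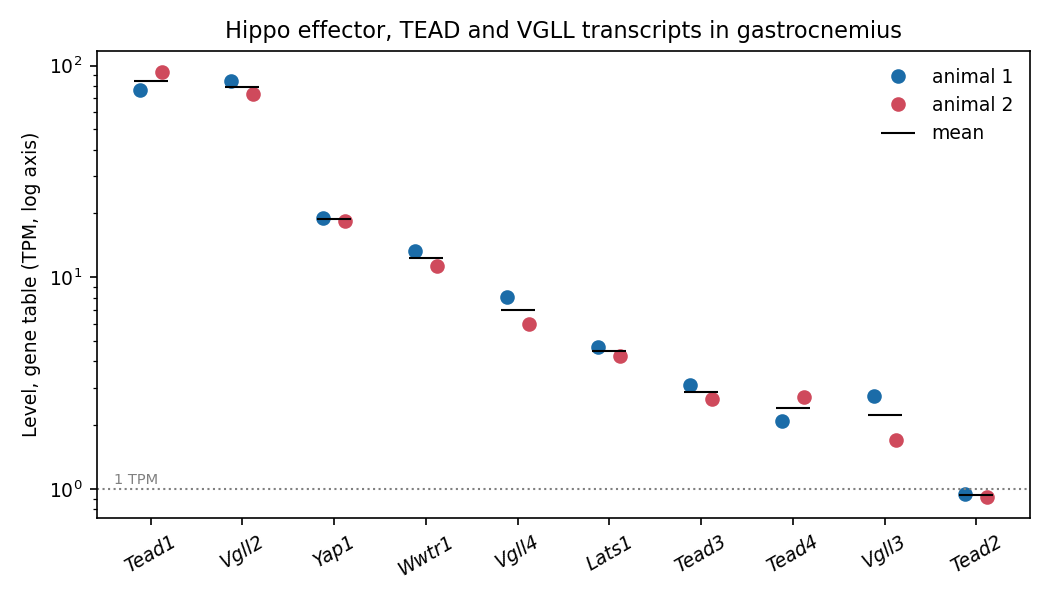
Level of each gene in TPM from the gene tables, on a log axis, with 1 point for each animal and a bar at the mean. Tead1 and Vgll2 sit together at the top with their animals in opposite order, and Tead2 is the only gene whose points lie under the dotted line at 1 TPM.

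The TEAD family was almost entirely Tead1. TEAD1 is the factor long known to bind MCAT elements of contractile genes. Tead1 was 76.3 TPM in animal 1 and 93.2 in animal 2, from 16548 and 21919 reads, and animal 2 was the higher. It held 93.1 ± 0.797% of the summed TPM of the 4 TEAD genes (SD, n = 2). Tead3 was 3.10 and 2.66 TPM, or 3.22 ± 0.768% of the family. Tead4, a factor known from myoblast differentiation and from the early embryo, was 2.10 and 2.72 TPM, or 2.64 ± 0.132%. Tead2, best known from embryonic tissues, was 0.95 and 0.92 TPM on only 50 and 42 reads. The log2 ratio of Tead1 was 4.83 ± 0.355 over Tead3, 5.08 ± 0.0495 over Tead4 and 6.35 ± 0.233 over Tead2, each larger than 2 SD. Tead1 lies on chromosome 7, 112679318 to 112906807, plus strand (mm10, GENCODE M21). An RNA gene read from its promoter in the other direction, 2310014F06Rik, overlaps it with 181 and 273 reads, which is few beside those of Tead1. Tead2 (chromosome 7, 45215753 to 45233644, plus strand) overlaps Cd37, a leukocyte gene on the other strand with 38 and 19 reads, which is not few beside its own. Tead3 lies on chromosome 17, 28331671 to 28350817, and Tead4 on chromosome 6, 128224288 to 128300823, both on the minus strand. Without the strand, reads of overlapping genes cannot be told apart, and the strand setting of the counting is not given in the sources used here.

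Among the coactivators Yap1 (chromosome 9, 7931999 to 8004596, minus strand) led Wwtr1 (chromosome 3, 57455649 to 57575910, minus strand) in both animals. Yap1 was 19.1 TPM in animal 1 and 18.4 in animal 2, so the animals differed little. Wwtr1 was 13.3 and 11.4 TPM. The log2 ratio of Yap1 over Wwtr1 was 0.61 ± 0.121 (SD, n = 2), or 1.52-fold, and larger than 2 SD. Yap1 thus held 60.4 ± 2.02% of their sum. The sum was 32.3 TPM in animal 1 and 29.8 in animal 2, while the TEAD sum was 82.5 and 99.5 TPM, so TEAD transcripts exceeded those of both coactivators together in each animal. Lats1, the kinase gene (chromosome 10, 7681214 to 7716460, plus strand), was 4.68 and 4.24 TPM. Its paralogue Lats2 was higher, at 8.51 and 8.67 TPM, and the log2 ratio of Lats1 over Lats2 was -0.93 ± 0.117.

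Of the VGLL genes Vgll2 was by far the highest. Vgll2 lies on chromosome 10, 52022502 to 52028471, and Vgll3 on chromosome 16, 65815257 to 65866368, both on the plus strand, and Vgll4 on chromosome 6, 114860628 to 114969994, on the minus strand. It was 84.5 TPM in animal 1 and 73.6 in animal 2, from 4561 and 4215 reads, and held 89.6 ± 1.35% of the VGLL sum (SD, n = 2). Vgll4 was 8.07 and 5.98 TPM and held 7.91 ± 0.785%. Vgll3 was 2.76 and 1.70 TPM and held 2.49 ± 0.569%. All 3 were higher in animal 1 on the TPM scale, though for Vgll2 the order turned when counts were scaled by the spike-ins. The log2 ratio of Vgll2 was 3.49 ± 0.161 over Vgll4 and 5.12 ± 0.332 over Vgll3. By transcript level the VGLL sum (95.4 and 81.3 TPM) exceeded the sum of Yap1 and Wwtr1 in each animal. Vgll1, the remaining member of that family, had 0 reads in both libraries, where 3 reads on a transcript of 2000 nt would equal 0.0419 TPM in animal 1 and 0.0394 in animal 2.

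Which Tead1 transcripts made up that level was taken from the transcript tables. The first transcript table is in the layout that RSEM writes and was made, like the gene table, from a transcriptome alignment. The second is in the layout that kallisto writes and was made from reads. GENCODE M21 lists 15 Tead1 transcripts, and its alternatives include a pair of exons of 63 nt each in the part that encodes the TEA DNA-binding domain, plus an exon of 12 nt further on. The coding sequences of the leading Tead1 transcripts differ by the first 63 nt exon and the 12 nt exon. Their annotated starts and lengths differ as well. The second 63 nt exon, which these transcripts all hold, is shown for comparison. Each is printed 5′ to 3′ with the exon in capitals and 25 nt of the neighbouring exons in lower case.
Tead1 first 63 nt exon, chr7:112841888-112841950, plus strand: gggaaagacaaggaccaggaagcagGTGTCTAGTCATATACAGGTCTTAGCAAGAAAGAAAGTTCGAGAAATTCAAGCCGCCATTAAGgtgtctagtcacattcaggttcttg
Tead1 second 63 nt exon, chr7:112842040-112842102, plus strand: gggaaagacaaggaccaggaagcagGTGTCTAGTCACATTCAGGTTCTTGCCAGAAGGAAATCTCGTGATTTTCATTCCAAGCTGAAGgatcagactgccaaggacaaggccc
Tead1 12 nt exon, chr7:112856053-112856064, plus strand: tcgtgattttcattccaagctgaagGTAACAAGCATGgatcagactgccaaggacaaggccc

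The pair of 63 nt exons match each other at 44 of 63 positions (69.8%) and both begin with the bases GTGTCTAGTCA. Of the TPM of Tead1 transcripts spanning them, those with both exons held 48.5% in animal 1 and 52.3% in animal 2, and those with the second exon only held 47.7% and 44.5%. Transcripts with the first exon only held 0.667% and 0.366%, and those with neither 3.17% and 2.82%. In the second table the forms with both exons held 65.2% and 66.4%, and those with the second only 29.5% and 26.1%. The second exon was therefore in 96.5 ± 0.462% of the spanning TPM (SD, n = 2) and the first in 50.9 ± 2.49%, or 93.6 ± 1.62% and 67.7 ± 2.26% in the second table. The 12 nt exon was in 61.6 ± 0.288%, and in 81.2 ± 0.394% by the second table. All 3 lengths are multiples of 3, so the reading frame continues with or without them. For each of these exons the gap between the tables exceeded that between the animals.

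The leading Tead1 transcript also differed between the tables. Tead1-202, with 411 codons and only the second 63 nt exon, held 34.7 ± 0.454% of Tead1 in the first table and 14.4% in the second. Tead1-201, with 436 codons, both 63 nt exons and the 12 nt exon, held 20.0 ± 0.421% in the first table and 53.7% in the second. Tead1-206 encodes the same 436 codons in a model of 1495 nt that ends at the stop codon, and held 27.3 ± 1.996% and 8.99%. The first table gave Tead1-201 in animal 1 a posterior SD of 507 reads on 5596 reads, the uncertainty of placing reads among overlapping models.

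Tead3 carries a similar pair of 63 nt exons, which are shown for comparison. In its annotated coding transcripts they are alternatives, and none of those spanning both holds both. The one with the higher share resembled the first Tead1 exon (46 of 63 positions, 73.0%), and the other resembled the second (51 of 63, 81.0%).
Tead3 63 nt exon of Tead3-201, chr17:28336511-28336573, minus strand: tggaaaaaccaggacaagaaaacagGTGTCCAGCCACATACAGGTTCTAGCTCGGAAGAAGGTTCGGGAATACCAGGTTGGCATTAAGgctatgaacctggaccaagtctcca
Tead3 63 nt exon of Tead3-207, chr17:28336274-28336336, minus strand: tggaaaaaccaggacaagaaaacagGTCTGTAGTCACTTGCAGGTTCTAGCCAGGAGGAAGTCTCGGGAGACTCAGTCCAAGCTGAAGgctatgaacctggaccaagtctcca
The exon of Tead3-207 was in 0% of spanning TPM in the first table and in 11.7 ± 3.89% in the second (SD, n = 2), leaving out the transcript that retains the intron. The Tead3 exon most like the one found in nearly all Tead1 was thus the lesser used. Tead3 rested on 257 and 232 reads, and the transcript with the highest mean share was Tead3-201 in the first table (29.5 ± 8.69%), which the second put at 0%, and Tead3-206 in the second (30.8%). In the first table Tead3-201 led in animal 1 (35.6% against 22.0% for Tead3-206), while in animal 2 Tead3-206 led (27.8% against 23.3%). The coding Tead3-205 was at 27.3% and 13.4% in the second table and at 0.324 ± 0.458% in the first. Of the transcripts annotated as retaining an intron, Tead3-202 was at 20.5 ± 2.91% in the first table and 26.0% in the second. Tead3-204 was at 13.7 ± 2.93% in the first table, on only 3.40 and 4.19 expected counts, and at 0% in the second.

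Tead4 divided by an exon of 129 nt that follows the exons of the TEA domain, and its sequence is shown because it was the only internal coding exon found in some but not all Tead4 coding transcripts.
Tead4 129 nt exon, chr6:128247960-128248088, minus strand: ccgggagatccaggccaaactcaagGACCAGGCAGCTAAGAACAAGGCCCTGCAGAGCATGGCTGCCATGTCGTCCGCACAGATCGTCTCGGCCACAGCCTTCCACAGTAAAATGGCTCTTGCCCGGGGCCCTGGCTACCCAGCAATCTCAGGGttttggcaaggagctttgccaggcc
It was in 62.4% of spanning TPM in animal 1 and 60.2% in animal 2, and in 50.7% and 55.6% in the second table. Tead4-201, which holds it, has 427 codons and led in both tables, at 59.8 ± 3.70% and 49.05% (SD, n = 2 in the first). Tead4-203, which lacks it, has 384 codons and held 37.7 ± 0.0777% and 43.5%. Both are annotated to begin at an ATT codon, and Tead3-206 at ATA, as is known for several TEAD proteins, which start at codons other than ATG. Tead2 had too few reads for its 17 transcripts, and the share of its leading transcript Tead2-201 was 47.9% in animal 1 and 29.3% in animal 2. Tead2-204, annotated without a coding sequence, was at 32.3% and 29.3% in the first table and at 0% and 11.5% in the second, whose highest mean share was that of Tead2-206 (14.3% and 29.6%).

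Yap1 also divided by a single exon. The 48 nt exon shown here is the one known to alternate among YAP isoforms, in the C-terminal activation region.
Yap1 48 nt exon, chr9:7950492-7950539, minus strand: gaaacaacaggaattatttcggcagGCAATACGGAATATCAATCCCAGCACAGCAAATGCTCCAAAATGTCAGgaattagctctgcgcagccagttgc
It was in 71.7% of spanning TPM in animal 1 and 69.2% in animal 2, and in 75.8% and 75.1% in the second table. Yap1-201, with the exon and 488 codons, held 63.9 ± 5.34% of Yap1, and Yap1-202, without it and with 472 codons, held 28.0 ± 0.907% (SD, n = 2). The second table gave 62.9% and 23.9%, so both tables put the exon in the larger part of Yap1. Wwtr1-201 held 99.6 ± 0.587% of Wwtr1, the least divided of the 10 genes.

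**Figure D2:**
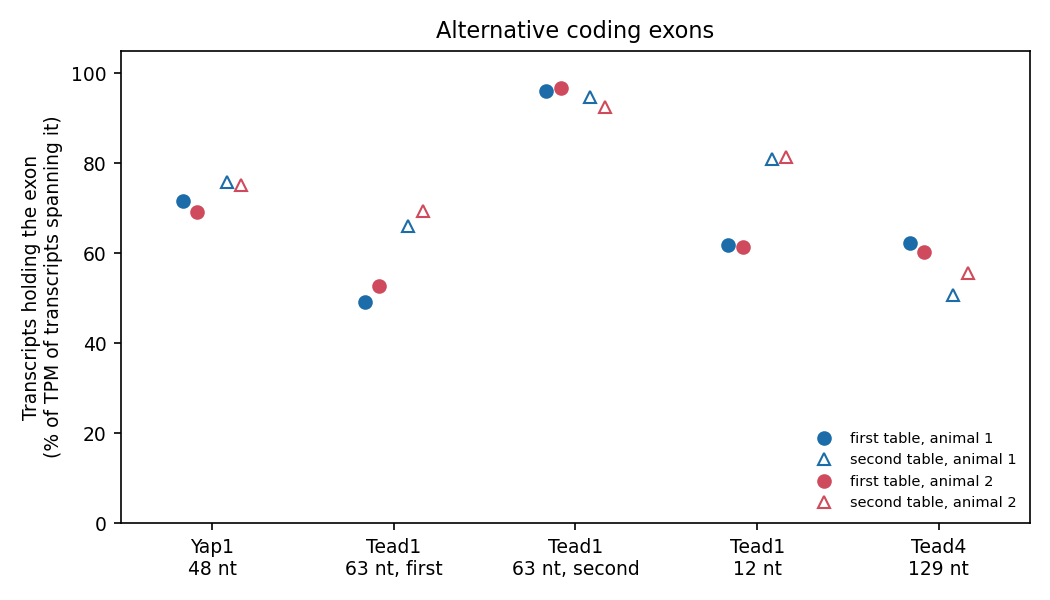
Percent of TPM of the transcripts spanning each alternative coding exon that hold it, for 5 exons of Yap1, Tead1 and Tead4, with filled circles for the first transcript table, open triangles for the second, and 1 colour for each animal. The animals lie close together in each table, while the triangles stand well above the circles for the first 63 nt exon and the 12 nt exon of Tead1.

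The VGLL genes differed in how far the tables placed them on coding transcripts. Vgll2-202 (322 codons) held 82.6 ± 0.428% of Vgll2 and Vgll2-201 (321 codons) the remainder, with 76.5% for Vgll2-202 in the second table (SD, n = 2 in the first). Vgll3-201 held 57.5 ± 2.698% of Vgll3 and 59.2% in the second table. Vgll3-202, with 270 codons against 325, was at 44.4% in animal 1 and 25.3% in animal 2, and at 23.8% and 14.5% in the second table. Vgll3-203, annotated without a coding sequence, was at 0% and 15.3% in the first table and at 12.6% and 30.9% in the second. For Vgll4 the largest single share belonged in animal 1 to Vgll4-205, which is annotated without a coding sequence. It was 49.4% there and 35.0% in animal 2, against 43.2% and 50.6% for the coding Vgll4-201. The first table put the coding Vgll4-203 at 0% in both animals. The second put it at 23.5% in animal 1 and 36.0% in animal 2, against 28.1% and 26.0% for Vgll4-201. The order of these coding transcripts thus turned between the animals. Vgll4-205 was at 44.8% and 33.8% in the second table, the highest mean share there (39.3%). Vgll4-201 and Vgll4-203 open with different coding exons, and both are shown from the start codon (in capitals) to the end of that exon.
Vgll4-201 first coding exon, chr6:114921317-114921398, minus strand: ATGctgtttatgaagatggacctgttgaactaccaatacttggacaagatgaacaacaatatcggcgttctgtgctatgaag
Vgll4-203 first coding exon, chr6:114957936-114957999, minus strand: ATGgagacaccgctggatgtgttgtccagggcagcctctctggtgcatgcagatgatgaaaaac
Of these 2 transcripts the first table thus assigned expected counts only to Vgll4-201, while the second gave a level to both. These are estimates per transcript, and reads over the 2 start exons were not counted. Lats1-202 and Lats1-203 encode the same 1129 codons and held 54.5 ± 1.03% and 45.4 ± 1.18% of Lats1. In all, both tables gave the highest mean share to the same transcript for 6 of the 10 genes, where they did so for 76.6% of 9773 protein-coding genes of 1 TPM or more with at least 2 transcripts. The exceptions were Tead1, Tead2, Tead3 and Vgll4. Of these, Tead2 averaged 0.935 TPM, below the bar of 1 TPM set for the share over all genes.

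The promoters were searched for the MCAT element that TEAD factors bind, as CATTCC on either strand, in RefSeq windows of 250 bases before to 50 after the start (GRCm38.p6). Windows were found for 8 of the 10 genes, all but Tead1 and Tead4. Of these, 5 held the letters (Yap1, Wwtr1, Tead3, Vgll3 and Vgll4), where 16.6% of 27025 genes did, counted over all windows of a gene. No peak or binding data bear on them, and a match is a description and no site. A window of 40 bases around 1 match of each is printed with the element in capitals, to show the flanking bases.
Yap1, chr9:8004715-8004754, minus strand: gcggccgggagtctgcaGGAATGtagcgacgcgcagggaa
Wwtr1, chr3:57576024-57576063, minus strand: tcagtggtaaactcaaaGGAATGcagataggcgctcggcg
Tead3, chr17:28350692-28350731, minus strand: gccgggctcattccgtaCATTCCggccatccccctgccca
Vgll3, chr16:65815109-65815148, plus strand: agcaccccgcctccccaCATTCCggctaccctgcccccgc
Vgll4, chr6:114969263-114969302, minus strand: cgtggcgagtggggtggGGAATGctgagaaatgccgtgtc
The Tead3 window holds a second match in lower case, 9 bases before the marked one. Windows were found for 15 of the YAP and TAZ signature genes described below, and 7 of these genes held the MCAT letters in any window. Also searched were CAGCTG, TGACGTCA and TATAAA, which none of the 8 members held, where 18.3%, 2.03% and 15.7% of 27025 genes did.

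The animals were then compared gene by gene, as the log2 ratio of expected counts scaled with TMM factors (a trimmed mean over genes), animal 2 over animal 1, with a counting interval at 95%. Of the members, 9 had a mean count of at least 100, and none of these was 2-fold apart, where 2.97% of 10872 such genes were (0.791% higher in animal 2 and 2.18% higher in animal 1). Tead1 had the largest ratio in favour of animal 2, at 0.43 (interval 0.40 to 0.46), or 1.35-fold. Over all 10872 genes the central 90% of ratios ran from -0.63 to 0.41, so Tead1 lay just above it. Tead4 was next, at 0.41 with a wider interval of 0.14 to 0.69 on its 195 and 255 reads, and it too lay just above the range. Vgll3 was lowest, at -0.50 (-0.71 to -0.29), followed by Vgll4 at -0.39 (-0.57 to -0.21), both inside the range of all genes. These intervals cover counting error only, and the difference between 2 libraries has no replicate check.

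The other members stood close together. The ratio was -0.02 for Yap1, -0.04 for Lats1, -0.09 for Vgll2, -0.11 for Wwtr1, -0.12 for Tead3 and -0.22 for Tead2. The intervals of Yap1, Lats1, Tead3 and Tead2 included 0. Spike-in scaling moved the median of all genes from 0.02 to 0.22 and made 7 of the 10 members higher in animal 2 in place of 2. Yap1, Wwtr1, Vgll2, Lats1 and Tead3 changed sign with it (0.18, 0.09, 0.11, 0.16 and 0.08), while Tead1 (0.63) and Tead4 (0.61) remained above 0 and Vgll3 (-0.30), Vgll4 (-0.19) and Tead2 (-0.03) below it. Under each of the scalings, prior counts and tables tried, 2 members lay above the median of all genes. Between scalings this count is fixed in advance, since a scaling shifts every gene and the median alike. Among all genes past 2-fold, the part that was higher in animal 2 was 26.6% and became 44.2% with spike-in scaling.

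**Figure D3:**
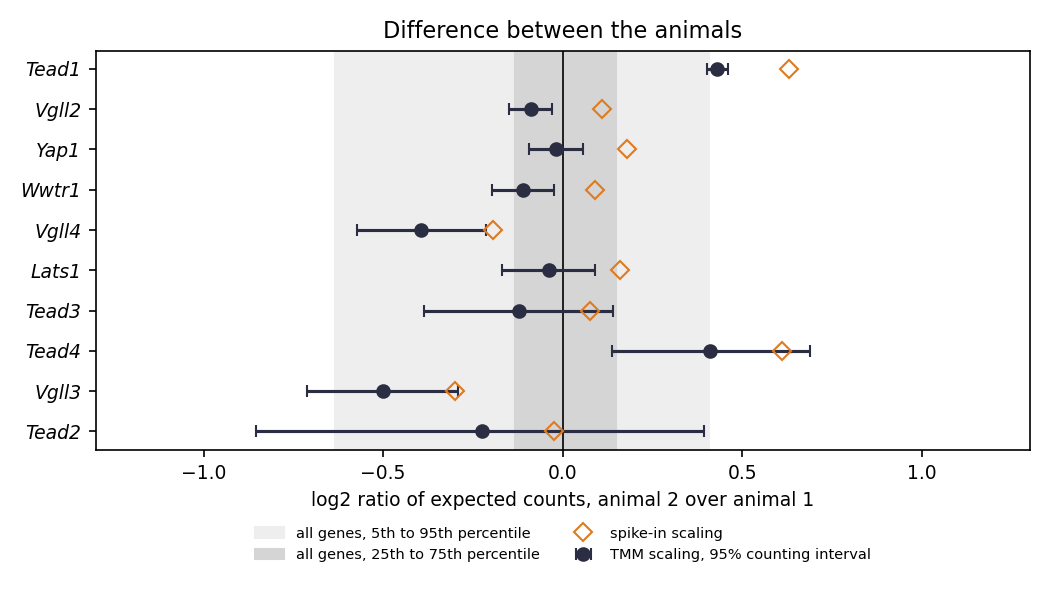
Log2 ratio of expected counts, animal 2 over animal 1, for each gene, with filled points for TMM scaling and their 95% counting intervals, open diamonds for spike-in scaling, and grey bands for the range of all 10872 genes whose mean count was at least 100, under TMM scaling. Tead1 and Tead4 lie to the right at 0.43 and 0.41, Vgll3 and Vgll4 to the left, and the other genes near 0.

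These ratios moved beside those of several cell types. Tead1 was higher in the animal in which 9 of 10 slow fibre markers were at least 2-fold higher (median log2 ratio 2.42), and in which all 6 tenocyte markers were higher (median 0.88). Vgll3 and Vgll4 were higher in animal 1, where all 8 adipocyte markers and all 6 Schwann cell markers with enough reads were at least 2-fold higher (medians -3.82 and -2.83). Fibroblast markers were divided: 5 of 7 were higher in animal 1, 2 of them at least 2-fold, and 2 were higher in animal 2 (median -0.41). Summed fibroblast markers were 1032 TPM in animal 1 and 727 in animal 2, and smooth muscle and pericyte markers 169 and 110 TPM. Endothelial markers were 95.8 and 83.0 TPM, macrophage markers 42.3 and 26.6 TPM, satellite cell markers 11.8 and 12.4 TPM and fast fibre markers 54489 and 51437 TPM. Their part in the ratios of the 10 genes was not tested.

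The rest of the pathway was measured from lists of its parts. The shares to set beside the counts of all 4 pathway lists are those over all genes. Of 22028 protein-coding genes, 46.5% reached 1 TPM in both animals. Of 10872 genes with a mean count of at least 100, 2.97% were 2-fold apart. Upstream, where adaptor and kinase proteins activate LATS, 16 of 17 genes reached 1 TPM in both animals and none of the 16 with enough reads was 2-fold apart. Their median log2 ratio was -0.02. The highest were Nf2, the tumour suppressor merlin, at 22.2 ± 1.17 TPM (SD, n = 2), the kinase gene Taok1 at 17.2 ± 0.219 TPM and the scaffold gene Sav1 at 15.8 ± 0.544 TPM. The MST kinase genes Stk3 and Stk4 were lower, at 2.54 and 1.96 TPM and at 3.62 and 3.13 TPM. STRIPAK, the phosphatase complex that opposes those kinases, had 11 of 13 genes at 1 TPM or more, with Strn3 highest at 58.4 ± 5.56 TPM, then Slmap at 38.8 ± 3.20 TPM and Stk25 at 33.96 ± 2.14 TPM. None of its 11 genes with enough reads was 2-fold apart (median 0.01).

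Among 12 partner and inhibitor genes of YAP, TAZ and TEAD, Amotl1 and Amot of the angiomotin family were highest. Angiomotins bind YAP and hold it outside the nucleus. Amotl1 was 115 TPM in animal 1 and 142 in animal 2, which was above Yap1, Wwtr1 and every TEAD gene in both animals. Its log2 ratio was 0.37, close to that of Tead1. Amot was 40.2 and 41.5 TPM, Limd1 averaged 11.7 ± 0.509 TPM (SD, n = 2) and Amotl2 was 9.69 and 10.2 TPM. In both animals 10 of the 12 genes reached 1 TPM, and none with enough reads was 2-fold apart (median 0.03).

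Transcripts that rise when YAP and TAZ are active were read from a list of 22 signature genes known mostly from cultured human cells. Of these, 17 reached 1 TPM in both animals, and the median over the 22 was 6.03 TPM. Ctgf, a secreted matricellular factor, was 22.0 and 23.6 TPM, Cyr61, a related factor, 18.9 and 18.7 TPM, and Ankrd1 3.82 and 3.61 TPM, so these widely used targets lay close together in the animals. Axl, a receptor kinase gene, was 25.5 and 17.4 TPM. Of the 18 genes with enough reads, 8 had a ratio above 0 and 10 below it (median -0.04), and 1 was past 2-fold: Ccdc80, a secreted matrix protein also expressed by fat cells, at 31.9 TPM in animal 1 and 7.81 in animal 2 (log2 ratio -1.86). Myof (-0.995) and Nt5e (-0.96) came closest to that threshold without passing it. Over all 10872 genes the median was 0.02, and 2.97% were past 2-fold.

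**Figure D4:**
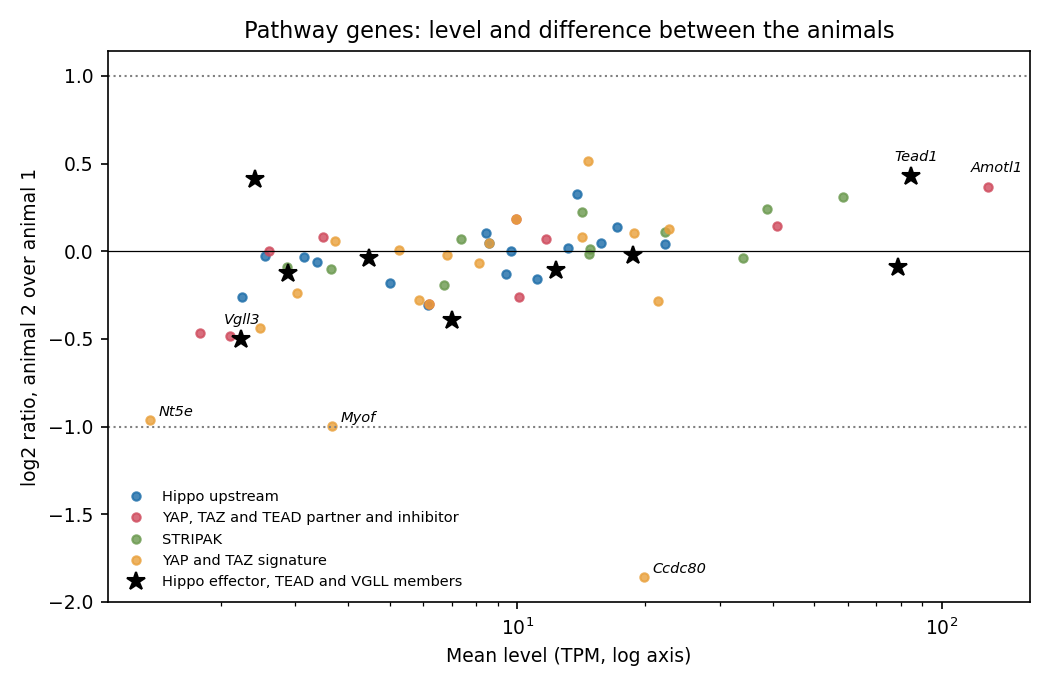
Log2 ratio of expected counts (animal 2 over animal 1, TMM scaling) against mean TPM on a log axis, for genes whose mean count was at least 100, with stars for the 9 members that reach it and coloured points for the 4 pathway lists. Dotted lines mark 2-fold, which only Ccdc80 of the plotted genes passes, and Amotl1 and Tead1 lie at the upper right.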

How the data were processed

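Total RNA libraries of 2 mice, 1 group, were read from 3 kinds of table. Gene tables and first transcript tables, as deposited, give expected counts and TPM in RSEM's column layout. The latter add a percent of the gene's TPM to every transcript, per the file headers. Second transcript tables, per the file headers, give estimated counts and TPM in kallisto's layout. Build mm10 and annotation GENCODE M21 come from the deposited file lists. For aligners and versions, nothing is stated in the sources used here. Reads of a B6 and CAST hybrid were set against a B6 reference, and the effect of CAST alleles was not tested.

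Rows naming no gene (26248, with 3 and 5 reads, 6.63e-06% and 1.04e-05% of counts) and spike-ins stayed out of library sizes. Shares of transcripts and exons were computed from TPM. Expected counts were rounded and scaled by edgeR's TMM (factors from genes averaging at least 1 count), with a prior count of 0.5. Paralogue ratios used TPM plus 0.1. Intervals cover counting error only. The members and lists were chosen with earlier results of these data known. Named were all members, their leading transcripts, those at 10% or more in both libraries of a table, the 3 highest genes of each list and those past 2-fold. Beyond this rule Lats2, Stk3, Stk4, Amotl2, Vgll1, Cyr61, Ankrd1, Myof and Nt5e were named after their values were seen. Counts for animal 2 over animal 1 were simulated (55536 genes), and genes with a mean count of at least 100 were scored. Of 200 such genes given a log2 change of 2, 98.5% were recovered, while 2.31% of unchanged ones passed 2-fold. Changes as small as those of the members were not simulated. Alternatives were other scalings (DESeq2 size factors, library size, spike-ins), prior counts, pseudocounts, filters, the second table, and leaving out each library. Software was R 4.3.3 with edgeR 4.0.16 and DESeq2 1.42.0, and Python 3.11.15 with pandas 2.3.3, scipy 1.17.1 and matplotlib 3.10.9.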

Additional observations from a re-analysis of the deposited data

How the results depend on the processing

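No paired analysis was possible because both libraries belong to 1 group. A log2 ratio between the animals cannot be had with a library left out. The 7 paralogue ratios stayed larger than 2 SD with pseudocounts of 0.01 and 1 TPM and in the second transcript table. The count of members detected was 10 in the second table (Tead2 included) and at 0.5 TPM, and 8 at 2 TPM. No share of all protein-coding genes is set beside these counts. The count past 2-fold stayed at 0 under each scaling and table tried. Leaving out either library moved no level, share or ratio by more than 1 SD, which holds for any mean of 2 values.

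In the second table mean TPM was 28.1 for Yap1, 17.1 for Wwtr1, 96.9 for Tead1, 2.34 for Tead2, 3.92 for Tead3 and 4.27 for Tead4. It was 110.9 for Vgll2, 3.02 for Vgll3, 12.3 for Vgll4 and 6.14 for Lats1. By these means Vgll2 passed Tead1 (log2 ratio 0.19 ± 0.337) and Tead4 passed Tead3 (0.11 ± 0.519), but neither pair was apart by 2 SD. Tead1 remained above Vgll2 in animal 2, and Tead3 above Tead4 in animal 1. Lats1 and Tead4 were no longer apart by 2 SD. Protein-coding genes held 45.2% and 45.3% of gene TPM in the first table and 73.6% and 71.8% in the second. With the second table scaled to the same protein-coding total, an alternative chosen after seeing the data, Yap1 was 17.6, Wwtr1 10.7, Tead1 60.5, Tead2 1.46, Tead3 2.44, Vgll2 69.2 and Lats1 3.83 TPM.

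Of family shares, counts without length gave Tead1 97.3%, Tead2 0.240%, Tead3 1.27%, Tead4 1.14%, Yap1 56.2%, Wwtr1 43.8%, Vgll2 82.9%, Vgll3 7.29% and Vgll4 9.78%. The second table gave Tead1 90.1%, Tead2 2.20%, Tead4 3.96%, Vgll2 87.9% and Vgll4 9.73%.

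Of leading transcripts, the second table gave Tead1-202 14.4%, Tead2-201 10.7%, Tead3-201 0%, Tead4-201 49.05%, Vgll2-202 76.5%, Vgll4-201 27.1% and Lats1-202 52.4%. Shares of expected counts gave Tead1-202 55.9%, Tead2-201 60.97%, Tead4-201 74.1%, Vgll2-202 89.4%, Vgll3-201 87.2% and Lats1-202 67.6%. The median log2 ratio of the 10 genes, animal 2 over animal 1, was -0.10 with TMM scaling and 0.10 with spike-in scaling. The cause of the differences between tables was not tested.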
